A study of Homo sapiens with 6 samples.

Results

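The FGF pathway set described here holds 50 genes: ligands of the fibroblast growth factor (FGF) family, their receptors, the proteins that carry the signal to the kinase ERK, and genes that restrain or follow that signal. They were chosen by symbol, with earlier results of these data known. Each symbol matched 1 of the 60664 gene rows of the deposited count table. Measurements were made in H7, an established line of human embryonic stem cells kept without feeder cells on Matrigel in mTeSR Plus medium. The groups were 3 control libraries and 3 libraries from H7 cells in which SAMD4A, which encodes a Smaug-family protein that binds RNA, was knocked down. The question of the series is the role of SAMD4A in keeping or leaving the pluripotent state. The labels name neither the knockdown construct nor the content of the control cells, and do not say whether the knockdown line is 1 clone or whether replicates were separate cultures. All p-values therefore measure the spread between these libraries, which may be technical.

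FGF ligands bind receptor tyrosine kinases together with heparan sulfate on the cell surface, and the receptor recruits adaptors that load RAS with GTP. RAS then starts a chain of kinases, RAF, MEK and ERK. Active ERK turns on genes whose products shut the pathway down again, among them Sprouty proteins and dual-specificity phosphatases, so the messages of these genes are often read as a record of ERK activity. Human pluripotent cells in culture depend on FGF2, which is supplied in the medium and is also made by the cells, to remain undifferentiated.

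Library totals ran from 19270688 to 21355171 counts. Levels are in CPM, that is counts per 1e+06 of the TMM-scaled library size. A log2 fold change sets knockdown against control, so that a negative value is a fall, and is followed by ± its standard error (SE). SAMD4A was at 52.2, 56.0 and 49.8 CPM in the control libraries and at 27.4, 28.5 and 28.5 CPM in the knockdown libraries (-0.90 ± 0.07 on the log2 scale, edgeR adjusted p = 9.0e-08). The summed level of 9 pluripotency markers was 7778 to 8036 CPM in control and 7802 to 8235 CPM in knockdown, and none of the 9 was at 0 in any library. Of the 9, POU5F1, TDGF1 and ZFP42 were higher (0.19 to 0.34 on the log2 scale) and NANOG, SALL4 and PODXL lower (-0.25 to -0.11). Knockdown replicate 1 stood apart in lineage markers: the early neural genes PAX6, SOX1 and SIX3 had 0 counts in knockdown replicate 2, while PAX6 was at 2.89 CPM in replicate 1 and at 1.85 to 2.75 CPM in control. Over the whole list of 10 neural markers, summed levels were 408 to 436 CPM in control and 463 to 623 CPM in knockdown, mostly from NES, which rose (0.49 ± 0.05). The other 9 neural markers summed to 68.5 to 79.5 CPM in control and 109, 11.7 and 9.99 CPM in knockdown replicates 1 to 3, above control in replicate 1 and below it in the others. Most of that swing was DLK1, at 45.0 to 52.9 CPM in control and 75.7, 2.44 and 1.30 CPM in knockdown replicates 1 to 3. FABP7 was at 7.32 to 8.71 CPM in control and 12.8, 7.12 and 6.80 CPM in knockdown. Over 7 endoderm markers the sums were 4.78 to 6.30 CPM in control and 13.7, 7.12 and 5.13 CPM in knockdown replicates 1 to 3. CER1 gave 6.08 CPM of the sum in knockdown replicate 1, and SOX17, FOXA2, GATA6 and CXCR4 were also highest there. AFP was highest in knockdown replicate 2, at 3.92 CPM, and GATA4 fell (-1.42 ± 0.37, edgeR adjusted p = 0.0049). Over 9 markers of primitive streak and mesoderm the sums in control were 8.42 to 10.8 CPM. In knockdown replicates 1 to 3 they were 14.8, 11.1 and 9.45 CPM. TBXT, MIXL1, EOMES and APLNR were highest in knockdown replicate 1. PDGFRA was highest in knockdown replicate 3, HAND1 had counts only in replicate 2, and MESP1, GSC and TBX6 were highest in a control library. Sums over 8 markers of trophoblast and amnion were 40.2 to 45.7 CPM in control and 24.4 to 26.1 CPM in knockdown. TFAP2C alone gave 23.1 to 25.0 CPM of that sum in control and 11.1 to 14.3 CPM in knockdown. Most of the rest came from GABRP and KRT7, and ISL1, TFAP2A, CGA and HAND1 were at 0 to 6 counts in every library. Over 7 fibroblast markers the sums were 786 to 840.3 CPM in control and 669 to 722 CPM in knockdown. THY1 alone gave 451 to 466 CPM of the fibroblast sum in control and 380 to 412 CPM in knockdown, and most of the rest came from COL1A1 and COL1A2. The fibroblast marker DCN was at 0 counts in every library and LUM at 0 to 3 counts. Whether cells of these types were present, and their part in the results below, was not tested.

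Of the 50 genes, 49 passed the filter on low counts and 32 passed the test (edgeR quasi-likelihood, adjusted p under 0.05), 13 higher and 19 lower in knockdown. That is 65.3% of the 49, in a comparison where 51.7% of all 17258 tested genes passed, 26.1% higher and 25.6% lower. The set was chosen with earlier results of these data known, in part from the same contrast, so setting these shares side by side tests nothing. The median log2 fold change was -0.08 for the 49 genes and -0.01 for all tested genes. Control and knockdown libraries were fully apart in 31 of the 49 genes and in 58.3% of all tested genes. FGF2, FGF13, FGFR1, ARAF, BRAF, MAP2K1, SPRY4, DUSP6, ETV4, SHC1, SOS1, PTPN11, RASA1 and NF1 share part of their span with another counted gene, and reads of such pairs may not have been kept apart by the authors' counting. Of 18 feedback and target genes 11 fell and 3 rose, of 17 adaptor and cascade genes 6 rose and 4 fell, of 6 receptor genes 2 rose and 1 fell, and of 9 genes for ligands, FGF homologous factors and a binding protein 2 rose and 3 fell. With scaling by total counts only, the median of all tested genes moved to -0.17, and 8 of the 49 genes were then higher and 27 lower, beside 15.7% and 37.1% of all tested genes. Without knockdown replicate 1, 14 were higher and 22 lower, beside 27.2% and 27.1% of all tested genes.

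**Figure D1:**
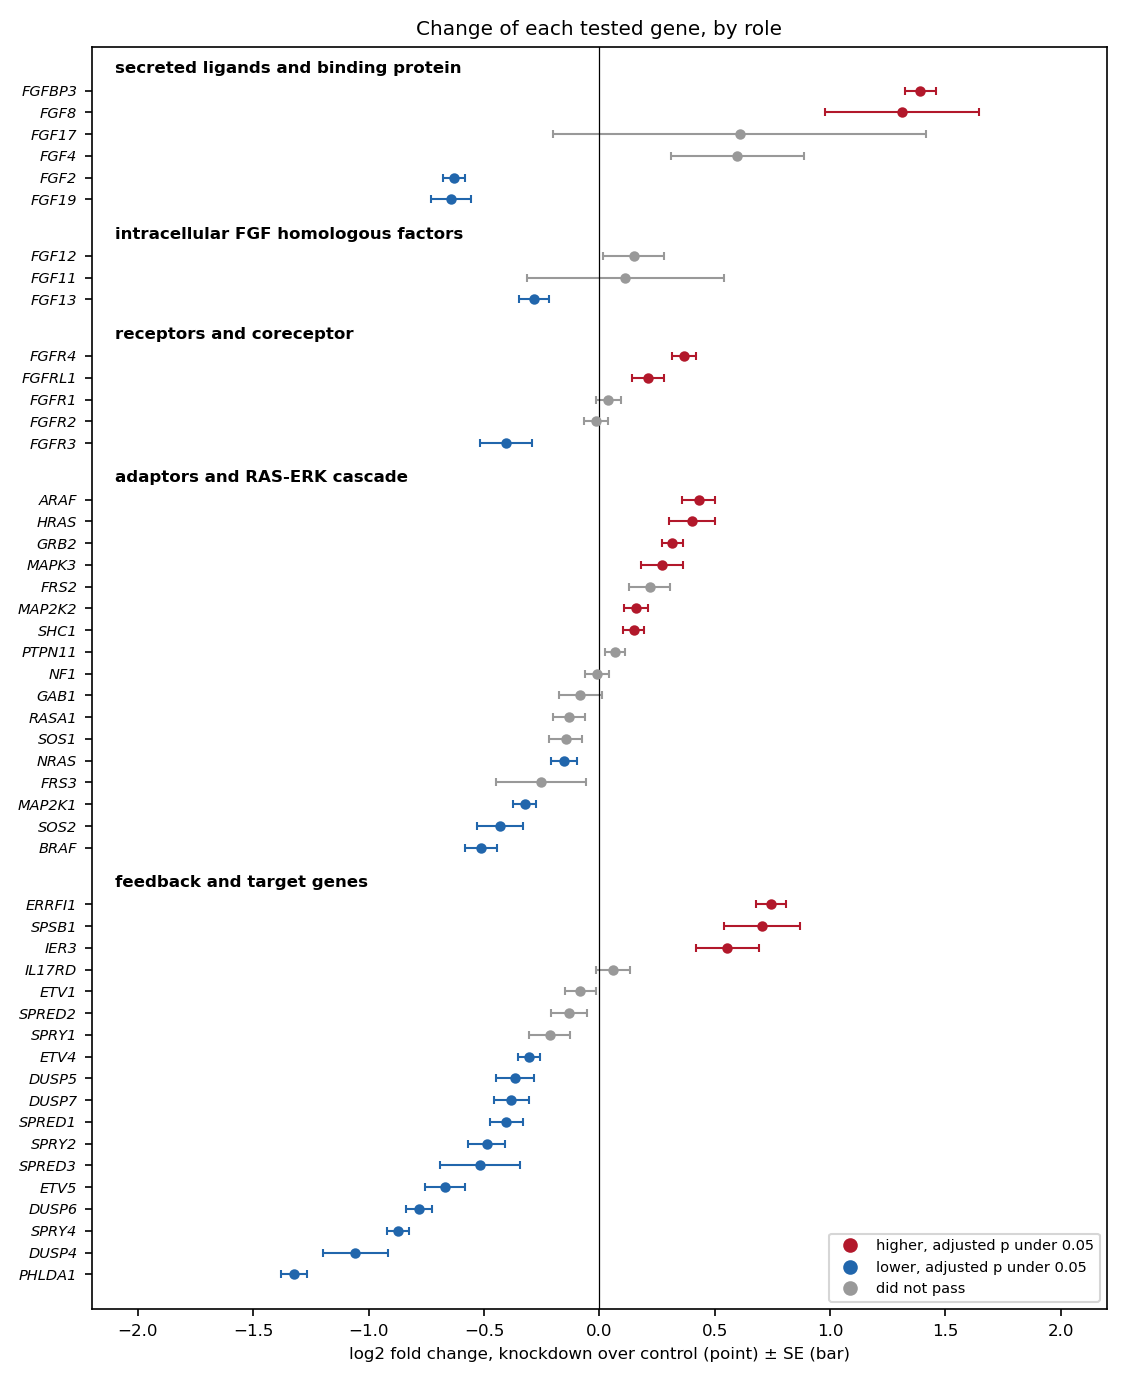
Log2 fold change of knockdown over control (horizontal axis, point) with its SE (bar) for the 49 tested genes, grouped by role, with red for genes that rose, blue for genes that fell and grey for genes that did not pass the test. The feedback and target genes hold 11 of the 19 falls, from -0.30 for ETV4 to -1.33 for PHLDA1, and the widest bar is that of FGF17.

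Among the secreted ligands, the 2 with the highest control level per kilobase of exon, FGF2 (39.5 CPM per kilobase) and FGF19 (17.8), fell, and FGF8 (1.10) rose. FGF2 (ENSG00000138685, chromosome 4, 122826708 to 122898236, GRCh38), the ligand on which these cells depend, was at 259, 268 and 262 CPM in control and 174, 175 and 161 CPM in knockdown. Every knockdown library lay below every control library, and the knockdown mean was 64.7% of the control mean (log2 fold change -0.63 ± 0.05, edgeR adjusted p = 3.9e-08). In a bulk sample, fewer cells that make a message and less of it per cell cannot be told apart. FGF19 (ENSG00000162344, chromosome 11, 69698238 to 69704022), an endocrine FGF that in the body regulates bile acid synthesis, was at 31.0, 34.8 and 31.3 CPM in control and 20.4, 22.2 and 19.7 CPM in knockdown. Its groups were again fully apart, and its fall to 64.1% of control was close in size to that of FGF2 (log2 fold change -0.64 ± 0.09, edgeR adjusted p = 1.7e-05).

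FGF8 (ENSG00000107831, chromosome 10, 101770109 to 101780371), a ligand of the primitive streak and of early brain organizers, rose from a low level. The control libraries had 1.43, 0.886 and 1.56 CPM and knockdown replicates 1 to 3 had 4.68, 3.05 and 1.89 CPM, so the groups did not overlap but the knockdown libraries spread widely (log2 fold change 1.31 ± 0.33, edgeR adjusted p = 0.004). Without knockdown replicate 1 the value was 0.94 (edgeR adjusted p = 0.01). FGF17, a close relative of FGF8, was at 1.09, 0.837 and 1.18 CPM in control and 4.33, 0 and 0.378 CPM in knockdown. Its highest and lowest libraries were both knockdown libraries, and it did not pass the test (0.61 ± 0.81, edgeR adjusted p = 0.56). Without replicate 1 it passed in the other direction (-2.45, edgeR adjusted p = 0.00074). The library high in FGF8 and FGF17 is the one with the highest sums of endoderm, neural, and primitive streak and mesoderm markers given above. Not every gene of those lists was highest in it. The part of cells of those types in both values was not tested. FGF4, a ligand of the early embryo, was at 1.76, 1.03 and 1.28 CPM in control and 1.89, 2.34 and 1.94 CPM in knockdown. All its knockdown libraries were above all its control libraries, yet it did not pass (0.60 ± 0.29, edgeR adjusted p = 0.097).

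The largest rise of the whole set was that of FGFBP3 (ENSG00000174721, chromosome 10, 91906584 to 91909486), a secreted protein that binds FGFs and releases them from the matrix. It was at 78.2, 71.6 and 88.2 CPM in control and 199, 210.4 and 215 CPM in knockdown. The groups were far apart compared with their spread, and the mean rose to 262% of control (log2 fold change 1.39 ± 0.07, edgeR adjusted p = 2.6e-10). Per kilobase of exon its control level, 31.1 CPM, was below that of FGF2, 39.5 CPM. In knockdown the order was reversed, with 81.5 CPM per kilobase for FGFBP3 and 25.6 for FGF2. These levels rest on the exon lengths that the authors deposited, which do not say which transcripts the cells use.

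FGF11, FGF12 and FGF13 encode FGF homologous factors, which stay inside the cell, are known as partners of voltage-gated sodium channels, and are not ligands of the kind FGF2 is. FGF13 had the highest control level per kilobase of exon, 5.13 CPM, and fell slightly, from 100.2, 96.7 and 104 CPM to 91.0, 75.7 and 80.9 CPM (log2 fold change -0.28 ± 0.07, edgeR adjusted p = 0.0021). Its fall was smallest in knockdown replicate 1, and the groups did not overlap. FGF12, with a mean of 7.90 ± 0.592 CPM in control against 8.76 ± 0.706 CPM after knockdown (± SD over 3 libraries), did not pass (edgeR adjusted p = 0.37), nor did FGF11, which was below 2 CPM in every library (edgeR adjusted p = 0.84).

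**Figure D2:**
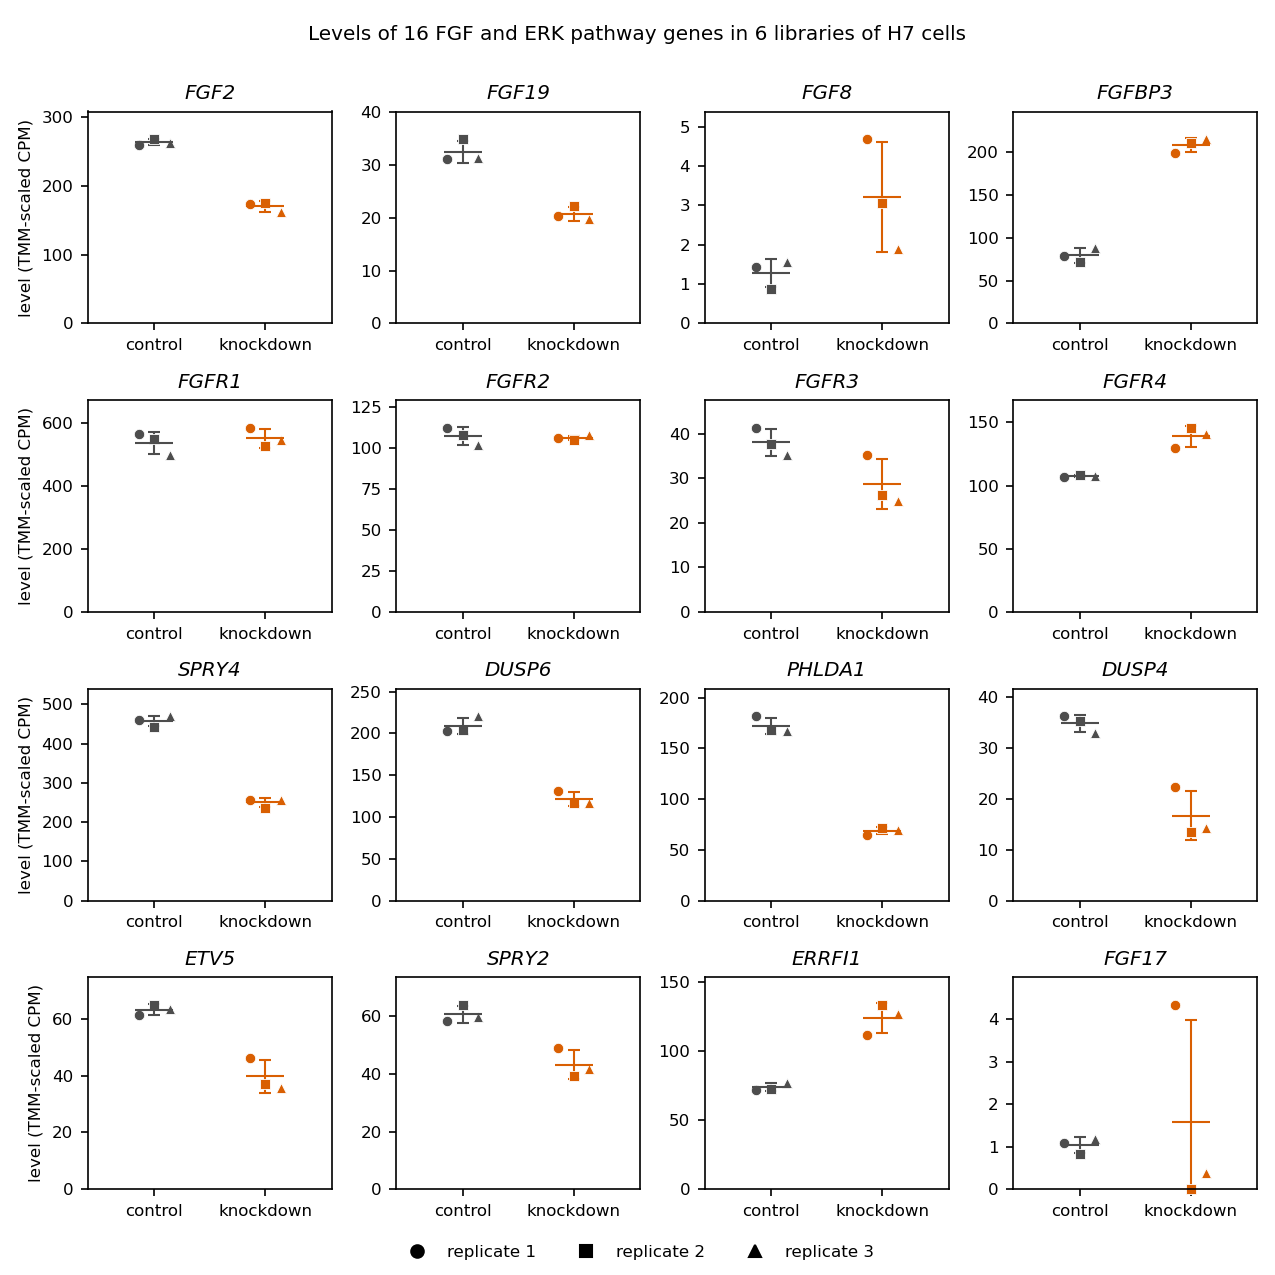
Level of 16 genes (vertical axis, TMM-scaled CPM, from 0) in each control (grey) and knockdown (orange) library, with marker shape for the replicate number, horizontal lines for the mean and bars for the SD over 3 libraries. SPRY4, DUSP6 and PHLDA1 show knockdown libraries close to each other and far below control, FGFR1 and FGFR2 show overlapping groups, and FGF17, whose bar is cut at 0, shows 1 knockdown library at 4.33 CPM with the others at 0 and 0.378 CPM.

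The receptor gene with the highest level showed no detectable change. FGFR1 (ENSG00000077782, chromosome 8, 38400215 to 38468834), the receptor through which FGF2 mainly acts in these cells, had the highest control level per kilobase of exon among the receptor genes, 94.3 CPM. It was at 565, 549 and 497 CPM in control and 585, 526 and 545 CPM in knockdown, and the groups overlapped (log2 fold change 0.04 ± 0.05, edgeR adjusted p = 0.57). FGFR2 was likewise within the spread of its control, with a mean of 107 ± 5.26 CPM in control against 106 ± 1.36 CPM after knockdown (± SD over 3 libraries; -0.02 ± 0.05, edgeR adjusted p = 0.82), and passed as a fall with total counts only (-0.17, edgeR adjusted p = 0.012), where the median of all tested genes was -0.17.

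Other receptor genes moved in both directions, 2 higher and 1 lower. Of all 5 receptor genes tested these are 60%, near the 51.7% of all tested genes that passed. With total counts only, 1 of the 5 was higher and 2 lower, FGFR2 among them, beside 15.7% and 37.1% of all tested genes. FGFR4 (ENSG00000160867, chromosome 5, 177086905 to 177098144), the receptor that FGF19 uses with a coreceptor, was at 107, 108 and 108 CPM in control and 129.6, 146 and 141 CPM in knockdown. The 3 control libraries were nearly equal and all knockdown libraries were above them (log2 fold change 0.37 ± 0.05, edgeR adjusted p = 3.7e-05). FGFR3 was at 41.3, 37.6 and 35.3 CPM in control and 35.1, 26.2 and 24.9 CPM in knockdown (-0.40 ± 0.11, edgeR adjusted p = 0.0072). Its knockdown replicate 1 lay just under the lowest control library, and with control replicate 1 left out the gene did not pass (-0.34, edgeR adjusted p = 0.052). FGFRL1, a receptor-like protein without a kinase domain, rose from 45.0 ± 3.44 to 52.1 ± 0.917 CPM (± SD over 3 libraries; 0.21 ± 0.07, edgeR adjusted p = 0.02). That small rise was lost with upper-quartile factors (edgeR adjusted p = 0.060), with total counts only (0.05, adjusted p = 0.55), and without control replicate 2, control replicate 3 or knockdown replicate 3 (0.17 to 0.21, adjusted p = 0.057 to 0.094). KLB, the coreceptor beta-klotho that FGF19 needs for strong signaling in liver, had 2, 2 and 0 counts in control and 1, 1 and 3 counts in knockdown, too few to be tested, so FGF19 and FGFR4 were measured in cells where the message of this coreceptor was close to 0.

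Genes of the adaptors and the RAS-ERK cascade changed by small amounts and in both directions. With total counts only, 2 were higher and 8 lower, beside 15.7% and 37.1% of all tested genes. With TMM scaling 6 were higher and 4 lower, or 58.8% of the 17, near the 51.7% of all tested genes that passed. The rises were those of ARAF (0.43 ± 0.07, edgeR adjusted p = 0.00012), HRAS (0.40 ± 0.10, 0.0037), the adaptor GRB2 (0.32 ± 0.05, 3.8e-05), MAPK3, which encodes ERK1 (0.27 ± 0.09, 0.022), MAP2K2, which encodes MEK2 (0.16 ± 0.05, 0.017), and the adaptor SHC1 (0.15 ± 0.04, 0.012, but -0.0090 with total counts only). The falls were those of BRAF (-0.51 ± 0.07, edgeR adjusted p = 2.2e-05), SOS2, an exchange factor that loads RAS (-0.43 ± 0.10, 0.0019), MAP2K1, which encodes MEK1 (-0.32 ± 0.05, 6.8e-05), and NRAS (-0.15 ± 0.06, 0.033). The remaining 7 did not pass, with log2 fold changes from -0.25 for FRS3 to 0.22 for FRS2 (edgeR adjusted p = 0.051). They are FRS2 and FRS3, the docking proteins of FGF receptors, SOS1, PTPN11, which encodes the phosphatase SHP2, the docking protein GAB1, and the RAS inactivators RASA1 and NF1. FRS2 is close to the threshold and passed as a rise without control replicate 3 (0.30, edgeR adjusted p = 0.018), without knockdown replicate 1 (0.21, 0.049) or without knockdown replicate 3 (0.27, 0.036). SOS1 passed as a fall without control replicate 1 (-0.21, edgeR adjusted p = 0.023) and RASA1 without knockdown replicate 1 (-0.18, 0.025). FRS2 also passed with DESeq2 factors, without the filter and with limma-voom (edgeR or limma adjusted p = 0.042 to 0.047), SOS1 and RASA1 with upper-quartile factors (0.037 and 0.040) and total counts (0.0023 and 0.0020), and GAB1 and NF1 with total counts (0.037 and 0.015).

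Paralogs at the same step of the cascade moved in opposite directions. BRAF (ENSG00000157764, chromosome 7, 140719327 to 140924929) was at 49.7, 54.4 and 51.3 CPM in control and 34.4, 37.7 and 36.9 CPM in knockdown. ARAF (ENSG00000078061, X chromosome, 47561205 to 47571908), a RAF kinase of the same family with lower kinase activity, was at 38.6, 40.6 and 38.4 CPM in control and 56.1, 49.1 and 53.4 CPM in knockdown. In neither gene did the groups overlap. Per kilobase of exon ARAF was above BRAF in both groups, at 16.5 against 5.28 CPM in control and 22.2 against 3.70 CPM in knockdown, so their order was the same. The raw count of ARAF over that of BRAF, not corrected for length, was 0.76 ± 0.02 (SD, n = 3) in control against 1.46 ± 0.16 (SD, n = 3) after knockdown, a 1.92-fold higher ratio.

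For MEK, MAP2K1 was at 119, 120.1 and 118 CPM in control and 97.9, 91.7 and 96.2 CPM in knockdown, and MAP2K2 at 201, 187 and 181 CPM in control and 212, 204 and 218 CPM in knockdown. The ratio of MAP2K2 to MAP2K1 counts went from 1.59 ± 0.08 to 2.22 ± 0.05 (± SD over 3 libraries, as for the ratios that follow). The ratio of HRAS to NRAS counts was 0.173 ± 0.028 in control and 0.253 ± 0.009 in knockdown, and that of FGFR4 to FGFR3 counts was 2.84 ± 0.23 in control and 4.97 ± 1.11 in knockdown, with 3.69 in knockdown replicate 1. A ratio within 1 library does not depend on the scaling between libraries, but shows only that the changes were unequal. For each of these 4 pairs, chosen after their values were seen, the groups did not overlap, and the two-sided exact permutation test gave p = 0.1, the smallest that 3 against 3 libraries allow (0.1 after adjustment over the 4).

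**Figure D3:**
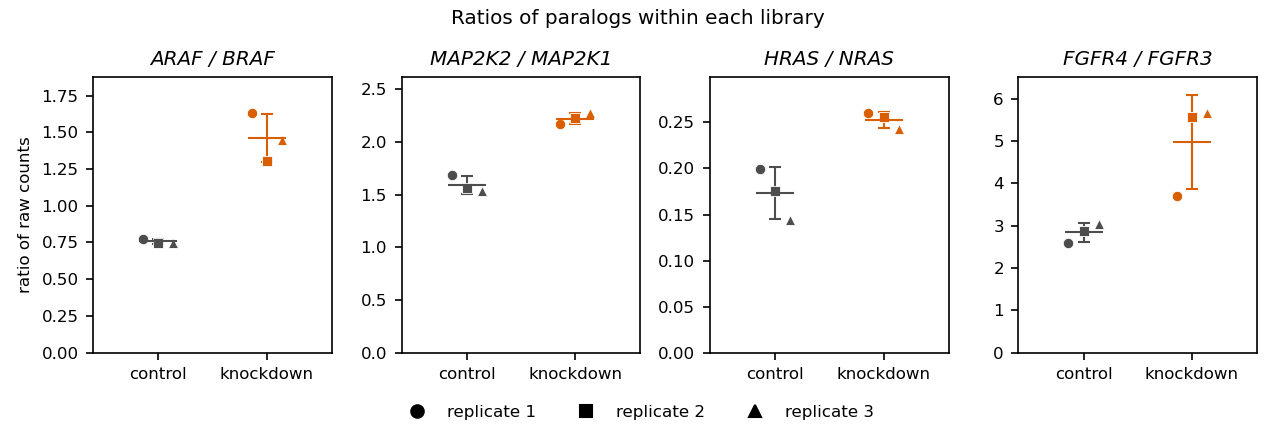
Ratio of raw counts of paralogs (vertical axis, from 0) in each control (grey) and knockdown (orange) library, with marker shape for the replicate number, horizontal lines for the mean and bars for the SD over 3 libraries. ARAF over BRAF lies between 0.747 and 0.775 in control and between 1.30 and 1.63 in knockdown, and the other 3 ratios are also higher in every knockdown library.

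The smaller calls of the cascade changed with the scaling and with single libraries left out. With total counts only, MAP2K2 (0.00030, edgeR adjusted p = 0.996), MAPK3 (0.11, 0.32), HRAS (0.24, 0.056) and SHC1 (-0.0090, 0.88) no longer passed, nor did MAP2K2, MAPK3 and SHC1 with upper-quartile factors (edgeR adjusted p = 0.052 to 0.077). NRAS did not pass without control replicate 2 or 3 or knockdown replicate 2 or 3 (log2 fold changes of -0.14 to -0.12, edgeR adjusted p = 0.095 to 0.16). MAP2K2 lost its call without control replicate 2 or 3 or knockdown replicate 3 (0.13 to 0.15, edgeR adjusted p = 0.065 to 0.081), MAPK3 without control replicate 2 or 3 (0.21 to 0.22, 0.098 to 0.12) and SHC1 without knockdown replicate 3 (0.13, 0.055). The 6 genes that rose had transcripts of 52.3% to 65.8% GC and the 4 that fell had 38.4% to 50.4%, while the median log2 fold change of all tested genes went from -0.14 in the lowest decile of GC content to 0.07 in the highest. Relative to the median of genes of like GC content, NRAS was at -0.02, MAP2K2 and SHC1 at 0.08, BRAF at -0.40 and ARAF at 0.36.

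Feedback and target genes of ERK were mostly lower in knockdown, with a median log2 fold change of -0.37 over the 18, all of which were tested. PHLDA1 (ENSG00000139289, chromosome 12, 76025447 to 76031776), a gene induced by growth factors, fell furthest. It was at 182, 168 and 167 CPM in control and 65.0, 71.5 and 69.8 CPM in knockdown, 39.9% of control (log2 fold change -1.33 ± 0.06, edgeR adjusted p = 8.4e-11). SPRY4 (ENSG00000187678, chromosome 5, 142310427 to 142326455), a Sprouty inhibitor of the pathway, had the highest control level per kilobase of exon of these genes, 93.3 CPM. It was at 460.0, 442 and 469 CPM in control and 257, 236 and 257 CPM in knockdown (-0.87 ± 0.05, edgeR adjusted p = 1.1e-09). For both genes the 3 knockdown libraries were close to each other and all far below control.

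The 4 dual-specificity phosphatases of the set, which remove phosphate from ERK, all fell. DUSP6 (ENSG00000139318, chromosome 12, 89347235 to 89352501), which acts on ERK in the cytoplasm, was at 202, 204 and 220.5 CPM in control and 131, 116 and 117 CPM in knockdown (-0.78 ± 0.06, edgeR adjusted p = 2.9e-08). DUSP4 (ENSG00000120875, chromosome 8, 29333064 to 29350684), a phosphatase of the nucleus, was at 36.2, 35.4 and 32.9 CPM in control and 22.3, 13.5 and 14.4 CPM in knockdown (-1.06 ± 0.14, edgeR adjusted p = 1.6e-05). In DUSP4, knockdown replicate 1 lay between the control libraries and the other knockdown libraries, and without it the log2 fold change was -1.32. DUSP5, a nuclear phosphatase specific for ERK, was at 47.0, 53.2 and 49.8 CPM in control and 43.3, 35.6 and 37.4 CPM in knockdown (-0.37 ± 0.08, edgeR adjusted p = 0.0016), and DUSP7, a cytoplasmic relative of DUSP6, fell from 46.3 ± 1.74 to 35.5 ± 2.46 CPM (± SD over 3 libraries; -0.38 ± 0.07, 0.00054).

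Of the ETS transcription factors induced by FGF signaling, ETV5 and ETV4 fell and ETV1 did not pass. ETV5 (ENSG00000244405, chromosome 3, 186046314 to 186110318) was at 61.2, 64.9 and 63.5 CPM in control and 46.4, 37.2 and 35.7 CPM in knockdown (-0.67 ± 0.09, edgeR adjusted p = 1.1e-05), with knockdown replicate 1 again nearest to control. ETV4, the most abundant of these factors per kilobase of exon, fell from 208 ± 3.13 to 169 ± 8.25 CPM (± SD over 3 libraries; -0.30 ± 0.05, edgeR adjusted p = 8.6e-05). ETV1 was at 84.1, 89.9 and 85.4 CPM in control and 72.2, 86.1 and 86.8 CPM in knockdown, with only knockdown replicate 1 below the control libraries (-0.08 ± 0.07, edgeR adjusted p = 0.34). It passed as a fall with total counts only (-0.24, edgeR adjusted p = 0.0094), where the median of all tested genes was -0.17.

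Among the other Sprouty genes and the related SPRED genes, whose products bind NF1 and hold back RAS, 3 more fell. SPRY2 was at 58.3, 63.9 and 59.7 CPM in control and 48.9, 39.3 and 41.5 CPM in knockdown (-0.49 ± 0.08, edgeR adjusted p = 0.00011). SPRED1 was at 74.9, 87.6 and 92.8 CPM in control and 64.1, 66.4 and 62.6 CPM in knockdown (-0.40 ± 0.07, edgeR adjusted p = 0.00025). SPRED3, at 10.7, 9.25 and 8.76 CPM in control and 4.78, 8.09 and 7.24 CPM in knockdown, also passed (-0.52 ± 0.17, edgeR adjusted p = 0.021), and there knockdown replicate 1 was the lowest. SPRED3 did not pass with control replicate 1 (-0.43, edgeR adjusted p = 0.11), control replicate 2 (-0.54, 0.0502) or knockdown replicate 1 (-0.32, 0.061) left out. SPRY1 (-0.21 ± 0.09, edgeR adjusted p = 0.056), SPRED2 (-0.13 ± 0.08, 0.16) and IL17RD (0.06 ± 0.07, 0.52), a membrane inhibitor of FGF signaling also called SEF, did not pass. Without knockdown replicate 1 SPRY1 (-0.28, edgeR adjusted p = 0.0063) and SPRED2 (-0.19, 0.04) did, and SPRY1 also did without control replicate 1 (-0.28, 0.031). SPRY1 passed as well with upper-quartile factors (-0.26, edgeR adjusted p = 0.024) and with a filter of at least 1 CPM in at least 3 libraries (-0.22, 0.046). With total counts only, where the median of all tested genes was -0.17, SPRY1 (-0.37, edgeR adjusted p = 0.0024) and SPRED2 (-0.29, 0.0044) passed.

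Going the other way were 3 genes of the feedback and target role. ERRFI1 (ENSG00000116285, chromosome 1, 8004404 to 8026309), which encodes MIG6, an inhibitor of the EGF receptor that also responds to stress and to steroid hormones, was at 71.8, 72.7 and 77.1 CPM in control and 112, 133 and 126 CPM in knockdown. Each knockdown library was above each control library (0.74 ± 0.06, edgeR adjusted p = 2.0e-07). SPSB1, an adaptor of a ubiquitin ligase, rose from 5.30 ± 1.14 to 8.64 ± 0.468 CPM (± SD over 3 libraries; 0.70 ± 0.16, edgeR adjusted p = 0.0022). IER3, an immediate early gene that also answers to NF-kB and p53, was at 20.4, 15.3 and 16.2 CPM in control and 19.9, 27.7 and 28.7 CPM in knockdown. Its knockdown replicate 1 fell within the control range, so its groups overlapped, although it passed the test (0.55 ± 0.14, edgeR adjusted p = 0.0031).

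**Figure D4:**
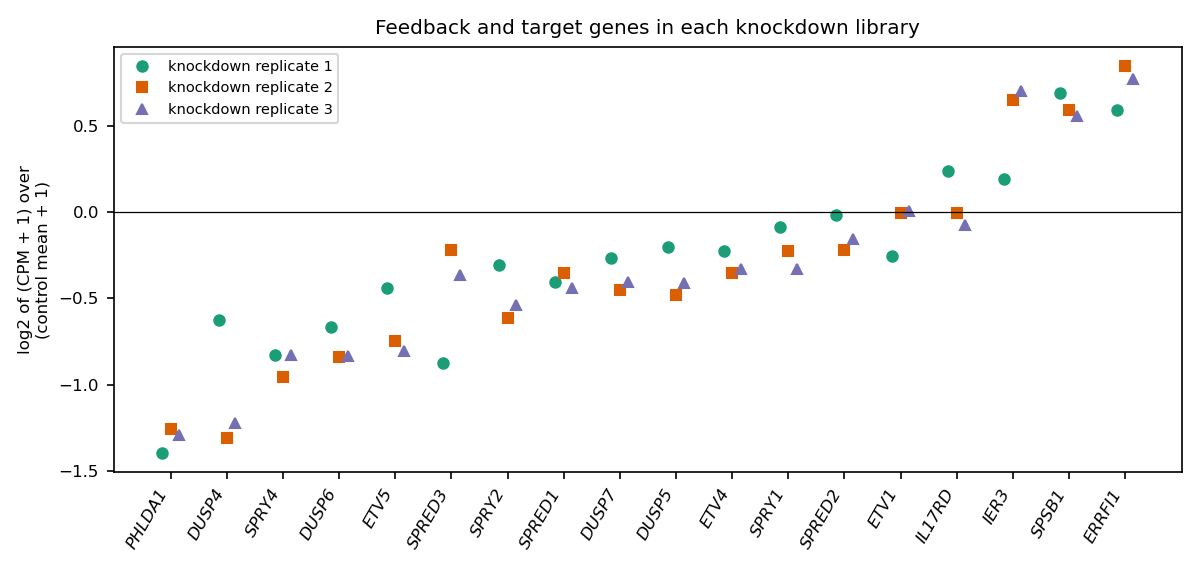
Level of each of the 18 feedback and target genes in each knockdown library relative to the control mean (vertical axis, log2 of CPM plus 1 over the control mean plus 1), ordered by log2 fold change. Knockdown replicate 1 (green circles) lies closer to 0 than the others in 8 of the 11 genes that fell, though in SPRY4 it is almost level with replicate 3. PHLDA1 and SPRED3 show the opposite order.

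The size of these falls differed between the knockdown libraries. Relative to the control mean, on the log2 scale of CPM plus 1, the median of the 18 genes was -0.26 in knockdown replicate 1, -0.35 in replicate 2 and -0.38 in replicate 3, while the medians of all tested genes were -0.02, -0.01 and -0.00442. Replicate 1 was the knockdown library nearest to the control mean in 8 of the 11 genes that fell (72.7%), against 44.8% of the 4423 genes that fell in the whole table. SPRY4 is counted among the 8, though its replicates 1 and 3 were almost level (-0.829 and -0.830). Whether 8 of 11 differs from the share in the whole table was not tested. Without that library, 12 of the 18 genes were lower and 3 higher, where 27.1% and 27.2% of all tested genes were.

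Short sequence elements near the start sites of these genes are shown because several of the genes that fell are textbook targets of CIC, a repressor that leaves DNA when ERK is active and that binds the octamers TGAATGAA, TGAATGGA, TCAATGAA and TCAATGGA. Both strands of the 300-base windows of RefSeq promoters (GRCh38.p14, 250 bases before to 50 after the start) were searched for the 4 octamers, which can overlap one another. At least 1 octamer was found in 3.77% of all 35116 windows and in 4 of the 61 windows of the 37 genes of the set that had an entry, which are those of DUSP6, SPRED3, ETV1 and FGFBP3. DUSP6 (chr12:89352452-89352751, minus strand) and FGFBP3 (chr10:91909437-91909736, minus strand), a gene that fell and the gene that rose furthest, each hold 2, given 5′ to 3′ with octamers in capitals, here all as the reverse complement. ETV1 (chr7:13991533-13991560, minus strand), which did not pass, and SPRED3 (chr19:38389589-38389616, plus strand), which fell, each hold 1, shown with the bases around it.
DUSP6: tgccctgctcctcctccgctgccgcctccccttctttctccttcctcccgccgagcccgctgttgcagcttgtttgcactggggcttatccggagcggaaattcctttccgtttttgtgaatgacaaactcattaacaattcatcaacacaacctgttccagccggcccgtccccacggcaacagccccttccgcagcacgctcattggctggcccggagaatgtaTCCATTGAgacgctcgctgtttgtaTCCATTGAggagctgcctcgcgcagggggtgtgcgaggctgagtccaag
FGFBP3: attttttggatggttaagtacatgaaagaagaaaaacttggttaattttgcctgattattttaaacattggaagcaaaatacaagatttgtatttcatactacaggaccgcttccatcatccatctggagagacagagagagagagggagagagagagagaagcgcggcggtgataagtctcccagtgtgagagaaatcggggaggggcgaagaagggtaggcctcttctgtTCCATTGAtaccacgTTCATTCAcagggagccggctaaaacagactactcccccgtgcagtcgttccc
ETV1: cggaattttgTGAATGGAgacgaaaggt
SPRED3: ttgatttttgTGAATGAAatgctctctg
The octamers of DUSP6 start 24 bases before the transcription start and at base 2, counting the start base as 1, and those of FGFBP3 start 18 and 3 bases before it. The same letters thus stood beside 2 genes that fell, 1 that rose and 1 that did not pass. An ETS octamer, CCGGAAGT, was found in 4.14% of all windows and in those of FRS2, NF1, NRAS and SHC1, and in none of the windows of feedback and target genes that had an entry. DUSP4, DUSP5, ETV4, ETV5, FGF4, FGF8, FGF17, FGF19, FGFR1, GAB1, IER3, PTPN11 and SPSB1 were not searched.

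Other genes of the pathway, listed apart from the 50, gave a mixed account. Of 20 further FGF ligands and cofactors 9 had enough counts to be tested, and 3 were lower and 1 higher. These 4 are 44.4% of the 9, against 51.7% of all tested genes. FGF21, an endocrine ligand that is induced by stress, was at 3.61, 3.84 and 3.31 CPM in control and 0.199, 0.712 and 0.324 CPM in knockdown (-3.10 ± 0.35, edgeR adjusted p = 3.3e-06). FGF18 (-1.60 ± 0.42, edgeR adjusted p = 0.0048) was lower from 1.92 CPM, and FGF22 (1.52 ± 0.34, 0.0015) higher from 0.756 CPM. Without knockdown replicate 1, 6 genes of the list were lower, in a fit where 27.1% of all tested genes were. FGF5, a ligand known from the mouse epiblast, had 0 counts in all 6 libraries.

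Of 27 further adaptor and cascade genes, 14 were lower and 5 higher, where 25.6% and 26.1% of all tested genes were. GAB2, a docking protein, was at 49.4, 47.9 and 45.7 CPM in control and 22.1, 19.6 and 21.2 CPM in knockdown (-1.18 ± 0.08, edgeR adjusted p = 9.9e-09). CBL, a ubiquitin ligase that removes active receptors, fell from 258 ± 4.32 to 169.7 ± 9.67 CPM (± SD over 3 libraries; -0.60 ± 0.05, edgeR adjusted p = 1.1e-07). PLCG1, the phospholipase that FGF receptors also activate, rose from 141 ± 3.43 to 249 ± 10.5 CPM (0.82 ± 0.05, edgeR adjusted p = 2.7e-09). In none of these 3 genes did the groups overlap.

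Of 20 further phosphatases and growth factor response genes, 7 were lower and 1 higher, which is 40.0% against 51.7% of all tested genes. Without knockdown replicate 1 the counts were 6 lower and 4 higher, and without control replicate 2 they were 6 and 2. DUSP8, a phosphatase that acts mainly on the stress kinases JNK and p38, fell from 15.6 ± 0.708 to 5.28 ± 0.935 CPM (± SD over 3 libraries; -1.57 ± 0.14, edgeR adjusted p = 2.2e-07). IER2, an immediate early gene, fell from 323 ± 6.68 to 185 ± 7.55 CPM (-0.81 ± 0.05, edgeR adjusted p = 2.0e-09). CCND1, which encodes cyclin D1, was at 198, 205 and 213 CPM in control and 181, 101 and 92.0 CPM in knockdown (-0.72 ± 0.17, edgeR adjusted p = 0.002), with knockdown replicate 1 close to control, and it did not pass with DESeq2 (adjusted p = 0.063). Without that library its log2 fold change was -1.08.

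Of 23 genes of heparan sulfate, the sugar chain with which FGFs and their receptors assemble, 22 were tested, of which 10 were higher and 3 lower, where 26.1% and 25.6% of all tested genes were. Without knockdown replicate 1, 9 were higher and 5 lower, where 27.2% and 27.1% of all tested genes were. GPC4, a glypican core protein, was at 731, 685 and 709.7 CPM in control and 973, 1255 and 1232 CPM in knockdown (0.70 ± 0.07, edgeR adjusted p = 1.1e-06), and its rise was smallest in knockdown replicate 1. The core protein SDC1 rose from 45.2 ± 2.63 to 81.4 ± 7.47 CPM (± SD over 3 libraries; 0.85 ± 0.07, edgeR adjusted p = 1.9e-07), and GLCE, an enzyme that modifies the chain, from 14.1 ± 1.36 to 23.5 ± 1.96 CPM (0.74 ± 0.10, 2.4e-05). With total counts only, 8 of these genes were higher and 4 lower, beside 15.7% and 37.1% of all tested genes.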

How the data were processed

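Per the labels' protocols, RNA of H7 cells was sequenced as paired ends from TruSeq Stranded mRNA libraries. The authors deposited raw counts per gene, not normalized. HISAT2, HTSeq and GRCh38 are named in the submitters' processing notes; their versions, options and strand setting are not given in those notes. Exon lengths are an annotation column that the authors deposited. Counts were filtered with filterByExpr and TMM-scaled in edgeR 4.0.16 (R 4.3.3), and groups were compared with its two-sided quasi-likelihood test, adjusted by Benjamini-Hochberg over the 17258 genes tested and a threshold of 0.05. The SE is the absolute log2 fold change over the square root of F. Counting error weighs most on genes near 1 CPM, and the biological coefficient of variation was 7.47%. Alternatives were other scalings and filters, DESeq2 1.42.0, limma-voom (limma 3.58.1), a replicate block, and leaving out each library; medians of genes of like exon length or GC content (longest GENCODE 29 transcript, 99.2% of genes matched) were added after seeing the data.

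Replicates differed by more than sampling noise (chi-square per degree of freedom of at least 2.78). In simulated counts of knockdown against control over 16912 genes, 83.3% of 96 genes changed 2-fold and 62.5% of 96 changed 1.5-fold were recovered, with 9 false calls of 149. The simulation changed only a small share of genes, while 51.7% of tested genes passed in the data. Its rates may therefore not carry over to these data. The members and lists were chosen with earlier results of these data known, in part from the same contrast. The rule for named genes took FGF2, FGFR1, SPRY4 and DUSP6, the called members with the largest changes in each role at a mean of at least 1 CPM, the most abundant member of each role per kilobase, the 3 largest calls in each further list, overlapping genes, and SAMD4A. All other values were chosen after they were seen.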

Additional observations from a re-analysis of the deposited data

How the results depend on the processing

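Of the 32 members that passed, 24 kept their call and direction under all 15 alternatives run, among them FGF2, FGF19, FGFBP3, FGF8, FGFR4, BRAF, ARAF, MAP2K1, SPRY4, DUSP6, PHLDA1, DUSP4, ETV5 and ERRFI1. The count of members that passed was 27 to 36 with 1 library left out, 35 with total counts only, 31 with upper-quartile factors, 32 with DESeq2 and 33 with limma-voom. Over all genes, 7409 to 9629 passed with 1 library left out and 8316 passed with DESeq2. Among the further FGF ligands and cofactors, 4 passed with all libraries and 7 without knockdown replicate 1; the lowest and highest counts with 1 library left out were 3 and 7. The log2 fold change of FGF17, which did not pass, was -2.45 without knockdown replicate 1 and up to 1.20 with another library left out, -1.55 with limma-voom and -0.22 with the replicate block. SHC1 turned to -0.0090 with total counts only, and the cause was not tested.

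Control and knockdown libraries carry the same replicate numbers, but libraries with the same number did not deviate together (correlations of -0.02, -0.01 and -0.04), so the numbers were not taken as pairs. With the replicate block 31 members and 8434 genes passed; NRAS was the member whose call was lost (-0.15, edgeR adjusted p = 0.058). FGF17, with 17 to 25 counts in control and 87, 0 and 7 in knockdown, had an SE of 0.81, while FGF4 and FGF8, with 18 to 94 counts, had SE of 0.29 and 0.33.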

Other observations

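Several members share their stretch of chromosome with another gene, and no source used here gives the strand setting of the authors' counting, so reads of such pairs may not have been kept apart. NUDT6 lies on the opposite strand over 9540 bases of FGF2 and fell from 10.5 ± 0.968 to 5.92 ± 0.743 CPM (± SD over 3 libraries; log2 fold change -0.82 ± 0.14, edgeR adjusted p = 0.00018), in the same direction as FGF2. FGF13-AS1, opposite to FGF13, fell as well (-0.63 ± 0.13, edgeR adjusted p = 0.00079). LETM2, whose gene reaches into FGFR1 from the opposite strand, fell from 3.16 ± 0.521 to 1.43 ± 0.318 CPM (-1.13 ± 0.26, edgeR adjusted p = 0.002) while FGFR1 was level within its spread, and RPS20P22, a pseudogene on the strand of FGFR1, fell too (-0.77 ± 0.17, 0.0015). SPRY4-AS1, at 2.21 ± 0.543 CPM in control, was just past the threshold (-0.77 ± 0.31, edgeR adjusted p = 0.048) and lost its call with DESeq2 (adjusted p = 0.077), with the replicate block (edgeR adjusted p = 0.071), and without control replicate 1 or 2 or knockdown replicate 2 (edgeR adjusted p = 0.13 to 0.18).

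Opposite directions were found in other overlapping pairs. ENSG00000274021, a gene on the strand opposite to DUSP6, rose from 0.864 ± 0.0731 to 3.01 ± 0.858 CPM (1.79 ± 0.30, edgeR adjusted p = 0.00012) while DUSP6 fell. NDUFB2, opposite to BRAF over 3464 bases, rose (0.28 ± 0.07, edgeR adjusted p = 0.0051) while BRAF fell, and NDUFB2 did not pass with total counts only (0.12, edgeR adjusted p = 0.19). DHX8, which shares 51777 bases with ETV4 on the other strand and was chosen after its values were seen, rose from 54.7 ± 1.86 to 91.1 ± 4.75 CPM (0.74 ± 0.06, edgeR adjusted p = 9.0e-08) while ETV4 fell. SNAPC5, opposite to MAP2K1, was lower like its neighbour (-0.34 ± 0.10, edgeR adjusted p = 0.0091, lost without control replicate 2 at 0.064), and SYN1, which shares 8 bases with ARAF, did not pass (-0.05 ± 0.10, edgeR adjusted p = 0.7).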
